A study of Homo sapiens with 6 samples.

Results

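The 41 genes described here encode the cytosolic and mitochondrial chaperones and their close partners: the HSP70 and HSP110 proteins, HSP90, small heat shock proteins, the mitochondrial chaperonin, J-domain (DNAJ) proteins, co-chaperones, the heat shock factors HSF1 and HSF2, and the 8 subunits of the cytosolic chaperonin CCT. They were taken by symbol from the deposited count table, which lists 30493 genes; each of the 41 symbols had 1 row, and all 41 passed the filter on low counts that left 17089 genes. The samples were 3 control libraries and 3 libraries with knockdown of STAU1, a double-stranded RNA-binding protein that acts in mRNA localisation, translation and decay. All were made from poly(A) RNA of A549, an established human lung adenocarcinoma line; by genotype the labels call the controls control plasmid and the others STAU1 knockdown, while the sample names of the latter begin with si. The labels do not say which reagent lowered STAU1, how long the cells were treated, or whether the replicates were grown apart. All p-values therefore measure no more than the spread between these 6 libraries, and that spread may be technical only.

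Chaperones bind unfolded or partly folded proteins and release them in cycles driven by ATP. HSP70 receives clients from J-domain proteins and is reset by nucleotide exchange factors such as the BAG proteins and HSP110; many signalling proteins then pass through the adaptor STIP1 to HSP90, whose cycle is tuned by CDC37, AHSA1, PTGES3 and the immunophilins FKBP4 and FKBP5. CCT is a barrel that folds actin and tubulin, and HSPD1 with its lid HSPE1 does the same kind of work for proteins imported into mitochondria. HSF1 is the transcription factor that raises many of these genes on heat or proteotoxic stress, through repeats of a short element in their promoters.

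Totals were 30354219 to 35431441 counts per library. STAU1 stood at 120, 125 and 117 CPM (a gene's counts relative to library size, scaled by TMM factors) in controls 1 to 3 and at 16.02, 15.7 and 14.6 CPM in knockdown libraries 1 to 3, 7.83-fold lower. Of 9 lung epithelial and A549 markers, given as CPM of the total counts, the keratins KRT8 and KRT18 were lower in knockdown libraries (4208 to 4334 against 3364 to 3449 CPM, and 3958 to 4049 against 3054 to 3133 CPM). CDH1 and EPCAM were higher there (82.2 to 86.4 against 122 to 129 CPM, and 36.5 to 38.8 against 46.6 to 47.2 CPM), and KRT19 and NAPSA overlapped between groups. NKX2-1 and SFTPC stayed at or below 0.274 CPM in every library, and SFTPB was at 1.52 to 3.24 CPM in controls and at 0 in all knockdown libraries. All 9 summed to 8508 to 8551 CPM in controls and 6727 to 6893 CPM in knockdown libraries. Fibroblast and endothelial markers summed to 7.13 to 8.04 CPM in controls and 11.9 to 13.5 CPM in knockdown libraries, immune markers to 13.4 to 14.9 and 17.4 to 20.0 CPM, and erythroid markers to at most 0.258 CPM. The sums were carried mostly by LUM and CD14; COL3A1, DCN, VWF and HBB were each below 0.5 CPM in all libraries, and COL1A2, PTPRC and CD3E were not analysed here. The part of these markers in the chaperone results was not tested. Mitochondrially encoded genes took 17.3% to 17.9% of control counts and 15.8% to 16.1% of knockdown counts.

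Most chaperone transcripts were modestly lower after STAU1 knockdown. At an adjusted p under 0.05 in edgeR's quasi-likelihood test, 30 of the 41 fell, 4 rose (BAG1, HSPD1, DNAJB4 and HSPB8) and 7 were not called, a called share of 82.9% against 44.1% of all tested genes (21.9% lower and 22.2% higher). Among the 9126 genes at least as abundant in controls as the scarcest of the 41, 60.6% were called. The median log2 fold change over the 41 was -0.18, against -0.00019 over all tested genes. Control and knockdown libraries did not overlap for 35 of the 41 (31 lower, 4 higher), against 51.4% of all tested genes. Scaling changed the count: with total-count scaling 24 fell and 9 rose, and on the deposited FPKM scale (fragments scaled by gene length and library depth) 18 fell and 8 rose, with medians of -0.10 with total counts, -0.069 for log2(FPKM + 1) and -0.071 for log2(FPKM + 0.1). In that order the median of all tested genes moved to 0.076, 0.052 and 0.096. These settings also moved the share of calls that were higher from 50.3% to 69.5%, 77.3% and 77.2%.

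**Figure D1:**
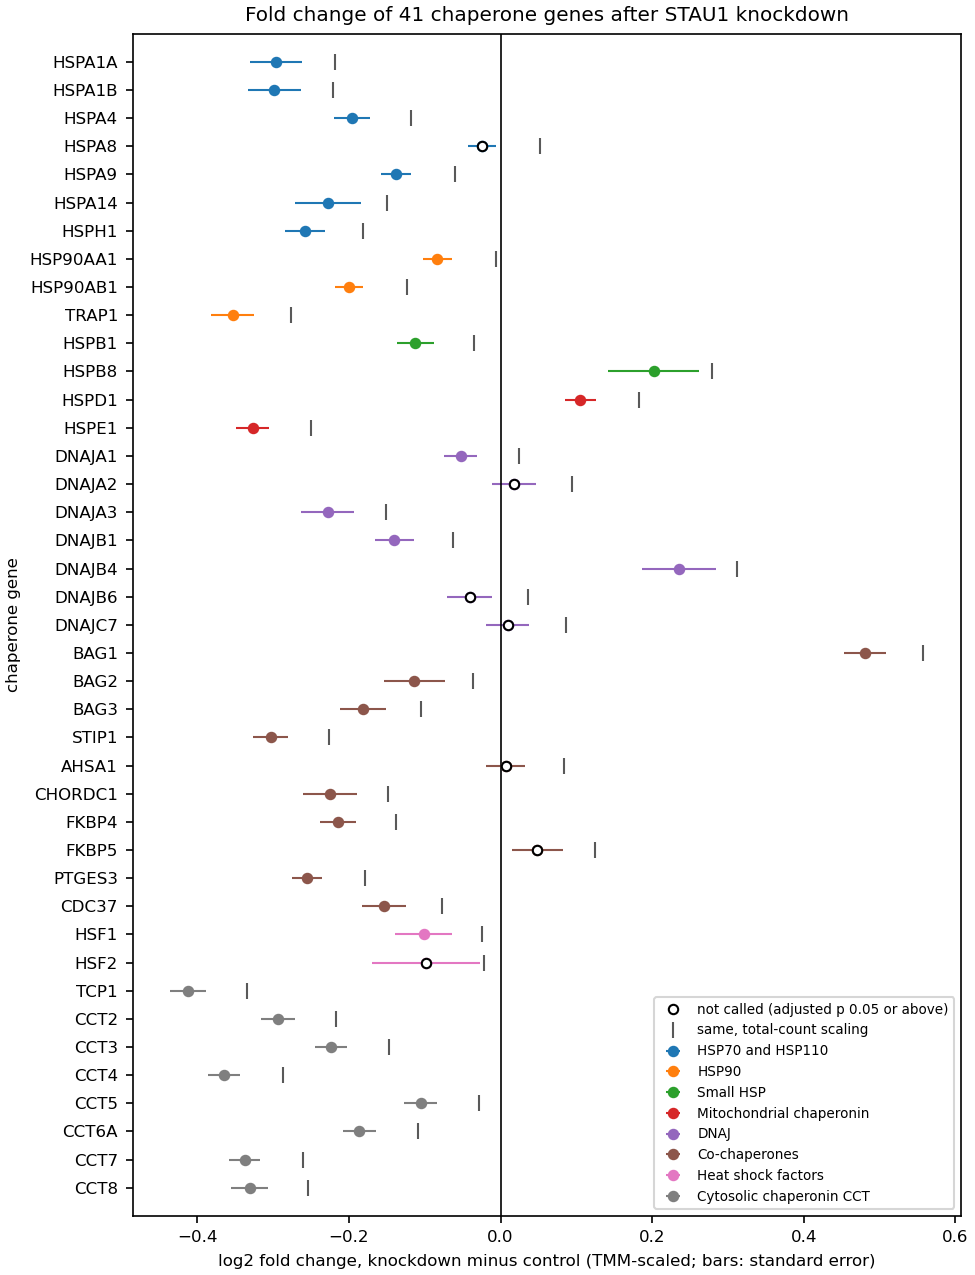
Log2 fold change (knockdown minus control, TMM-scaled counts) of the 41 chaperone genes, coloured by class, with standard errors; open circles are the 7 genes not called, and grey ticks give the same value with total-count scaling. BAG1 stands highest at 0.48 and TCP1 lowest at -0.41; with total-count scaling every gene lies further to the right, and HSPA8, DNAJA1 and DNAJB6 cross 0.

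The promoter sequences were searched for exact matches to the binding element of the heat shock factors near the start sites. The matches are given beside values that describe how each gene moved. Windows from 250 bases before to 50 after a transcription start, from RefSeq on GRCh38.p14, were found for 37 of the 41 genes. The element is built of GAA units in alternating orientation: the short form searched was GAANNTTC or TTCNNGAA (2 units, each its own reverse complement), and the long form was GAANNTTC followed directly by NNGAA, or TTCNNGAA followed directly by NNTTC (3 units; each is the reverse complement of the other, and every long match contains a short match). The long form stood in windows of 7 of the 37 genes (HSPA8, HSPD1, HSP90AA1, HSP90AB1, CHORDC1, DNAJB6 and DNAJA1) and in 0.478% of the 11500 tested genes with a window; the short form stood in 19 of 37 and in 13.7% of those genes. Genes can have several windows; of all 35116 windows 0.490% held the long form and 13.5% the short form. The stretches below, 5′ to 3′ on the strand of the gene, show the long form upstream of the start in 6 of the 7 genes, and the short form in the near-identical pair HSPA1A and HSPA1B and in HSPB8, which rose. Capitals mark the GAA and TTC units.
HSPD1, chr2:197500062-197500090, minus strand: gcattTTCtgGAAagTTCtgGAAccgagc
HSPA8, chr11:123062171-123062199, minus strand: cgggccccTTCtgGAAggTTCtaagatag
HSP90AA1, chr14:102087112-102087140, minus strand: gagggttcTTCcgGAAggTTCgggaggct
HSP90AB1, chr6:44247823-44247851, plus strand: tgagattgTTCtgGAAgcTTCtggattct
CHORDC1, chr11:90223084-90223112, minus strand: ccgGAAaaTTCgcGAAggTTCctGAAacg
DNAJB6, chr7:157336865-157336893, plus strand: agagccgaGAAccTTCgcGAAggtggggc
HSPA1A, chr6:31815426-31815455, plus strand: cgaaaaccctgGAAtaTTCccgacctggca
HSPA1B, chr6:31827622-31827651, plus strand: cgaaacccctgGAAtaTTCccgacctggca
HSPB8, chr12:119178832-119178861, plus strand: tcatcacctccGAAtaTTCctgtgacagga

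In the GENCODE 29 annotation of GRCh38 the HSPD1 element lay in exons of both HSPD1 and HSPE1, those of HSPA8, HSP90AA1, CHORDC1 and HSPB8 in an exon of the gene itself (from a longer transcript), those of HSP90AB1 and DNAJB6 in an intron, and those of HSPA1A and HSPA1B in no gene. HSP90AB1 held another long match 165 to 153 bases before the same start, besides the printed match at 112 to 100 bases. HSPA8 held another at 230 to 218 bases, besides the printed match at 55 to 43 bases. In DNAJA1 the match did not lie wholly before the start site. Of the 7 genes with the long form 4 fell, 1 rose and 2 missed the threshold (median log2 fold change -0.052). Of the 12 with only the short form 10 fell and 2 rose (median -0.22), and of the 18 with neither 12 fell, 1 rose and 5 missed the threshold (median -0.19). HSPE1 was counted among the 18 with neither, and HSPD1 among those with the long form. The HSPE1 window (197500129 to 197500428) did not reach the element printed for HSPD1, which lies in exons of both genes. Over all tested genes with a promoter window, 24.1% of 11500 fell (median 0.0069), against 23.6% of the 55 with the long form (median 0.011) and 22.7% of the 1579 with the short form (median 0.019). A match describes the letters in the window and was not tested as a binding site. The search took only exact units at a fixed spacing inside the window, so a gene without a match may still hold an element.

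The HSP70 class fell in 6 of its 7 genes, with a median log2 fold change of -0.23 (-0.15 for total counts, -0.11 for log2(FPKM + 1), -0.12 for log2(FPKM + 0.1)). A share of 85.7% was called, against 44.1% of all tested genes and 60.6% of the 9126 abundant genes. HSPA8 encodes the constitutive cytosolic HSP70 and was the most abundant of the class, at 1294, 1276 and 1278 CPM in controls and 1258, 1267 and 1259 CPM in knockdown libraries. The groups were close together but did not overlap. Its log2 fold change was -0.024 (SE 0.02, adjusted p = 0.293), with the opposite sign and past the threshold under total-count scaling (0.053, adjusted p = 0.0164) and on the FPKM scales (0.085 each, adjusted p = 0.0281 and 0.0259). HSPA9, the mitochondrial HSP70 that also drives protein import, had 552, 547 and 544 CPM in controls and 504, 498 and 491 CPM in knockdown libraries. Every knockdown library was below every control, and the log2 fold change was -0.14 (SE 0.02, adjusted p = 6.5e-07), no longer called on either FPKM scale (-0.027 and -0.028, adjusted p = 0.417 and 0.420). The count ratio HSPA9 over HSPA8 was 0.426, 0.429 and 0.426 in controls and 0.401, 0.393 and 0.390 in knockdown libraries, where it dropped by 7.54%.

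The stress-inducible pair HSPA1A and HSPA1B are neighbours on chromosome 6 (31815464 to 31817946 and 31827735 to 31830255, GENCODE 29) and share nearly the same sequence, so reads may be split between them. HSPA1A had 104, 99.6 and 113 CPM in controls and 87.1, 84.2 and 86.5 CPM in knockdown libraries. HSPA1B had 65.5, 62.03 and 66.3 CPM in controls and 52.9, 51.8 and 52.9 CPM in knockdown libraries. Both changed by -0.30 (SE 0.03 and 0.04), and the sum of their counts, an analysis added after the values were seen, gave -0.30 (SE 0.03, adjusted p = 4.7e-10). A noncoding gene record on the same strand shares 920 exon bases with HSPA1B; it held 65.1% as many counts as HSPA1B and had a log2 fold change of -0.0041 (SE 0.05, not called). HSPH1 and HSPA4, HSP110 proteins that act as nucleotide exchange factors, fell from 145 ± 3.02 to 121 ± 1.54 CPM and from 243 ± 4.45 to 212 ± 3.55 CPM (SD, n = 3 each). HSPA14, a ribosome-associated member, fell by 0.23 on the log2 scale. Another gene record, also named HSPA14 in GENCODE 29, lies on the same strand and shares 460 exon bases with it. That record has another symbol in the deposited counts, held 65.1% as many counts and was not called (-0.068, SE 0.06).

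**Figure D2:**
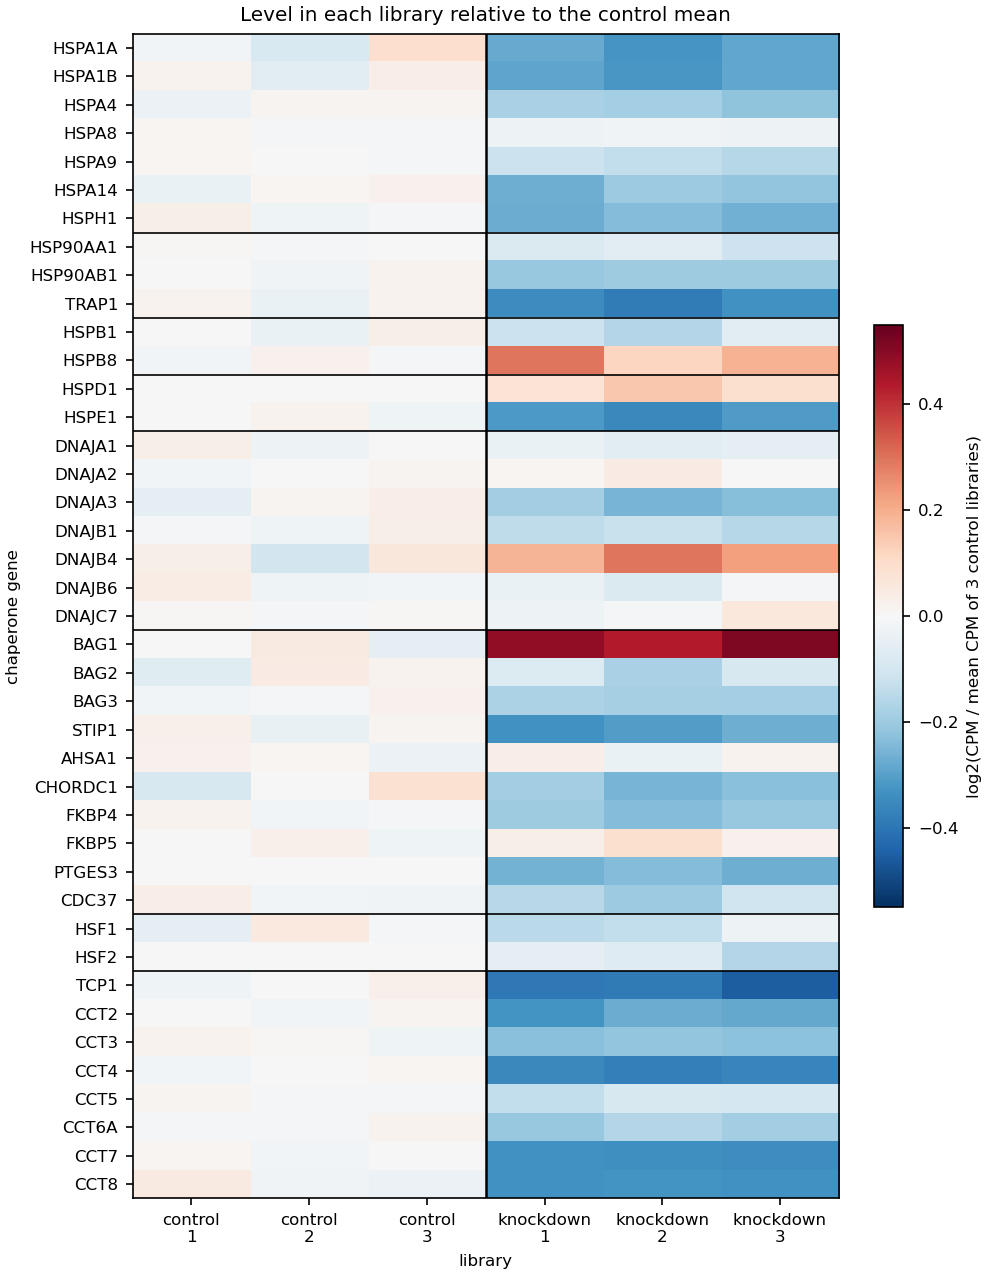
Level of each of the 41 genes in each of the 6 libraries as log2 of its TMM-scaled CPM over the mean of the 3 controls; rows are grouped by class with black lines between classes. The CCT rows are blue in each knockdown library (on the FPKM scale CCT5 is not lower), BAG1 is the darkest red row, and HSPD1 and HSPE1, which form a class of their own, have opposite colours.

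HSP90 transcripts fell in all 3 genes (median -0.20, -0.12 with total-count scaling and -0.090 on both FPKM scales), against 21.9% of all tested genes. The mitochondrial paralog TRAP1 had the largest change. TRAP1 had 121, 116 and 121 CPM in controls and 93.9, 91.2 and 94.7 CPM in knockdown libraries. The groups were well apart, and the log2 fold change was -0.35 (SE 0.03, adjusted p = 1.4e-12). DNASE1, on the opposite strand, shares 1531 exon bases with TRAP1 but held 14.8% as many counts and was not called (-0.11, SE 0.09).

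HSP90AB1, the constitutive cytosolic form, had 1149, 1132 and 1162 CPM in controls and 995, 1001 and 1002 CPM in knockdown libraries (-0.20, SE 0.02, adjusted p = 5.6e-11). HSP90AA1, the inducible form, had 1264, 1252 and 1261 CPM in controls and 1191, 1210 and 1164 CPM in knockdown libraries. Neither gene had overlapping groups. For HSP90AA1 the change was small, -0.083 (SE 0.02, adjusted p = 4.5e-04), and was not called with total-count scaling (-0.0061, adjusted p = 0.828) or on either FPKM scale, where its sign turned (0.026 and 0.027). Their balance can be read without any scaling factor from the ratio of counts within a library: HSP90AA1 over HSP90AB1 was 1.10, 1.11 and 1.09 in controls and 1.198, 1.21 and 1.16 in knockdown libraries, 8.41% higher, with no overlap. In an exact permutation test over the 6 libraries (two-sided) this gave p = 0.1, the smallest p that 3 against 3 allows; of the 8 pair ratios computed, 7 gave that p, with a Benjamini-Hochberg adjusted value of 0.114.

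The mitochondrial chaperonin genes moved in opposite directions. HSPD1, the barrel subunit (chromosome 2, 197486581 to 197516737, minus strand), and HSPE1, its lid (197499994 to 197503457, plus strand), lie head to head and their annotated exons share 281 bases on opposite strands. HSPD1 had 672, 670 and 673 CPM in controls and 709, 745 and 714 CPM in knockdown libraries. HSPE1 had 399, 405 and 393 CPM in controls and 321, 312 and 321 CPM in knockdown libraries. For both genes the groups were apart, with every knockdown library above the controls for HSPD1 and below them for HSPE1. HSPD1 rose by 0.11 on the log2 scale (SE 0.02, adjusted p = 6.5e-05) and HSPE1 fell by 0.33 (SE 0.02, adjusted p = 1.1e-14).

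The count ratio HSPE1 over HSPD1 was 0.594, 0.604 and 0.583 in controls and 0.453, 0.419 and 0.450 in knockdown libraries, where it dropped by 25.9% (exact permutation p = 0.1, adjusted 0.114 over 8 pairs). No source used here says whether the counting used strand, so reads from the shared bases may have gone to either gene; their part in the ratio was not tested. HSPE1-MOB4, a readthrough record that shares 192 exon bases with HSPE1 on its strand, also fell (-0.17, SE 0.05) and held 6.38% as many counts. Pseudogene rows named after these genes held little: 6 rows for HSPD1 summed to 0.0971% of its control counts, and 10 rows for HSPE1 to 0.0805%.

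Cytosolic chaperonin transcripts had the lowest median of the 8 classes, and all 8 subunits fell, against 21.9% of all tested genes. The median log2 fold change was -0.31 (-0.24 with total-count scaling, and -0.20 on both FPKM scales). TCP1, the alpha subunit, had 283, 287 and 293 CPM in controls and 219, 220 and 210 CPM in knockdown libraries. Its log2 fold change of -0.41 (SE 0.02, adjusted p = 2.5e-16) was the lowest among the 41 genes. ACAT2, a thiolase gene on the opposite strand that shares 397 exon bases with TCP1, held 45.1% as many counts and was not called (0.046, SE 0.03). CCT4 had 406, 411 and 414 CPM in controls and 321, 316 and 319 CPM in knockdown libraries (-0.36, SE 0.02, adjusted p = 2.7e-16). CCT7 had 413, 406 and 411 CPM in controls and 325, 325 and 324 CPM in knockdown libraries (-0.34, SE 0.02, adjusted p = 1.7e-15). In each of these subunits the lowest control was far above the highest knockdown library.

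CCT8 had 261, 249 and 247 CPM in controls and 200.1, 200.9 and 200.5 CPM in knockdown libraries (-0.33, SE 0.02, adjusted p = 1.3e-13). CCT2 had 290, 286 and 292 CPM in controls and 231, 240 and 238 CPM in knockdown libraries (-0.29, SE 0.02, adjusted p = 5.8e-13). CCT3 fell from 465 ± 7.43 to 398 ± 1.66 CPM and CCT6A from 384 ± 4.85 to 338 ± 5.17 CPM (SD, n = 3 each), by 0.22 and 0.19 on the log2 scale. CCT5 had the smallest change of the class, from 366, 361 and 361 CPM to 331, 342 and 339 CPM (-0.11, SE 0.02, adjusted p = 1.1e-04). That call was lost with total-count scaling (-0.028, adjusted p = 0.295) and on both FPKM scales, where the sign turned (0.0041 and 0.0042), and the call of CCT6A was lost on both FPKM scales (adjusted p = 0.0714 and 0.0696). An antisense gene shares 1757 exon bases with CCT5 and held 3.30% as many counts (-0.51, SE 0.46, not called). Summed as CPM of the total counts, with no TMM factor, the 8 subunits held 2804, 2770 and 2779 in controls and 2428, 2455 and 2413 in knockdown libraries, again with the groups apart. By such sums HSP90 and the co-chaperones were also lower, and HSP70 slightly so (2344 to 2378 in controls, 2295 to 2335 in knockdown libraries). The mitochondrial chaperonin was higher (1034 to 1046 against 1055 to 1088) and DNAJ barely higher (867 to 890 against 891 to 900). Small heat shock proteins and heat shock factors overlapped between groups.

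The assembled CCT ring holds each subunit in equal number, while the deposited FPKM values of the subunits were unequal. FPKM rests on the gene length used by the submitters, which no source used here gives. CCT4 and CCT5 had 410 and 363 CPM in the control mean, nearer to each other than their FPKM of 124 and 52.5. The part of gene length in the order of FPKM was not tested. In controls the mean FPKM ran from 48.1 for TCP1 and 52.5 for CCT5 to 98.3 for CCT3 and 124 for CCT4. As shares of the summed CCT FPKM within a library, which need no depth factor, CCT5 went from 8.54% ± 0.0438 to 9.66% ± 0.125 and CCT6A from 13.3% ± 0.163 to 14.2% ± 0.148 (SD, n = 3 each). TCP1 went the other way, from 7.82% ± 0.146 to 7.15% ± 0.168, and CCT4 from 20.2% ± 0.232 to 19.1% ± 0.259. The groups did not overlap for 7 of the 8 shares; those of CCT2 did. Shares of a sum are not independent of each other, and no test was run on them.

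**Figure D3:**
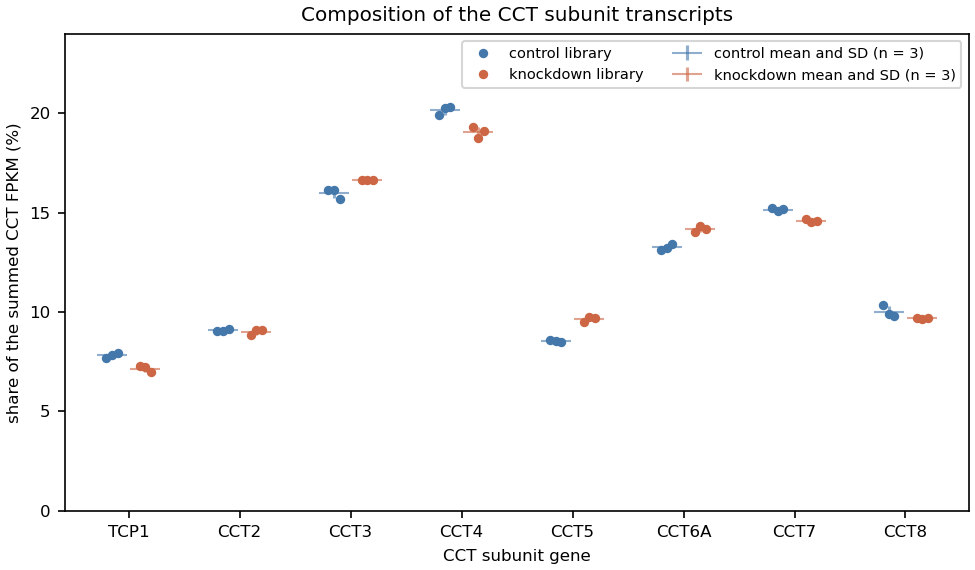
Share of each CCT subunit gene in the summed CCT FPKM of a library (percent, axis from 0), as points for the 3 control and 3 knockdown libraries with mean and SD. CCT5, CCT6A and CCT3 sit higher in the knockdown libraries and TCP1, CCT4, CCT7 and CCT8 lower, while CCT2 overlaps.

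Prefoldin, the cochaperone that hands actin and tubulin chains to CCT, fell in all 6 subunit genes (median log2 fold change -0.25), and in 4 of the 6 with total-count scaling (-0.18) and on the FPKM scales (-0.14 each). Over all tested genes 44.1% were called and 21.9% fell, and of the 9126 abundant genes 60.6% were called. PFDN1 fell from 64.3 to 53.3 CPM (-0.27, SE 0.03), PFDN2 from 49.2 to 39.7 CPM (-0.31, SE 0.04) and PFDN4 from 45.6 to 37.0 CPM (-0.30, SE 0.04). Of 3 genes for phosducin-like and thioredoxin-like proteins that assist CCT, PDCL fell (-0.37, SE 0.05), PDCL3 rose (0.21, SE 0.05) and TXNDC9 was not called (-0.012, SE 0.04; 0.065 with total-count scaling, 0.092 and 0.098 on the FPKM scales, not called there either).

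Among the J-domain genes 3 of 7 fell, 1 rose and 3 were not called, and the class median of -0.041 turned to 0.036 with total-count scaling and to 0.057 and 0.067 on the FPKM scales. That median, the value of DNAJB6, was -0.021 without control replicate 1 and -0.023 without knockdown replicate 2. DNAJB1, a heat-inducible partner of HSP70, had 155, 154 and 160 CPM in controls and 142, 144 and 140 CPM in knockdown libraries (-0.14, SE 0.03, adjusted p = 2.4e-05), no longer called on either FPKM scale (-0.028 and -0.029, adjusted p = 0.511 and 0.513). TECR, on the opposite strand, shares 211 exon bases with DNAJB1, held 58.0% as many counts and was not called (-0.051, SE 0.03). DNAJA3, the mitochondrial J protein, fell from 65.1 ± 2.04 to 55.6 ± 1.29 CPM (-0.23, SE 0.03). DNAJB4 had 28.6, 26.0 and 29.2 CPM in controls and 31.8, 34.2 and 32.7 CPM in knockdown libraries, all above the controls, and rose by 0.24 (SE 0.05, adjusted p = 1.3e-04).

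DNAJA1 had 366, 351 and 357 CPM in controls and 349, 342 and 344 CPM in knockdown libraries. It lay at the threshold (-0.052, SE 0.02, adjusted p = 0.04996), was not called in 9 of the alternatives with the same sign, and had the opposite sign with total-count scaling (0.025) and on both FPKM scales (0.057 and 0.058). DNAJA2 had 95.5, 96.5 and 97.4 CPM in controls and 97.2, 99.6 and 96.3 CPM in knockdown libraries, with the groups interleaved (0.018, SE 0.03, adjusted p = 0.651), but was called higher with total-count scaling (0.095) and on the FPKM scales (0.12 and 0.13). Its value was 0.011 without control replicate 1, 0.0039 without knockdown replicate 2 and 0.027 without knockdown replicate 3, not called in any of these. DNAJB6 was not called, at -0.041 (SE 0.03), with the sign turned under total-count scaling (0.036) and on the FPKM scales (0.057 and 0.067). DNAJC7 was not called either, at 0.0093 (SE 0.03), and was called higher with total-count scaling (0.086, adjusted p = 0.0115). For DNAJC7 the opposite-strand neighbours CNP and NKIRAS2 share 401 and 484 exon bases with it and held 92.3% and 35.6% as many counts. The ratio DNAJB1 over DNAJA1 was 0.424, 0.438 and 0.447 in controls and 0.406, 0.419 and 0.407 in knockdown libraries. The ratio DNAJA1 over DNAJA2 was 3.83, 3.64 and 3.67 in controls and 3.59, 3.44 and 3.58 in knockdown libraries. In knockdown libraries the former dropped by 5.88% and the latter dropped by 4.75%, with groups apart by narrow margins (exact permutation p = 0.1 each).

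Of the 10 co-chaperone genes 7 fell, 1 rose and 2 missed the threshold (median -0.17, -0.091 with total-count scaling, -0.056 and -0.058 on the FPKM scales). This is a called share of 80%, against 44.1% of all tested genes and 60.6% of the 9126 abundant genes. The gene that rose, BAG1, had the largest rise and the smallest adjusted p of the 41. BAG1 encodes a nucleotide exchange factor for HSP70 that links it to the proteasome; it had 133, 138 and 129 CPM in controls and 187, 180 and 190.1 CPM in knockdown libraries. The lowest knockdown library was far above the highest control, and the log2 fold change of 0.48 (SE 0.03, adjusted p = 2.0e-16) is 1.40-fold. No other gene's exons overlap those of BAG1 in GENCODE 29 (chromosome 9, 33247820 to 33264720, minus strand). BAG3, a stress-induced BAG protein that directs clients to autophagy, had 82.4, 82.4 and 84.5 CPM in controls and 73.6, 73.1 and 73.1 CPM in knockdown libraries (-0.18, SE 0.03, adjusted p = 6.4e-06), no longer called on either FPKM scale (-0.069 and -0.071, adjusted p = 0.0933 and 0.0941). The ratio BAG3 over BAG1 was 0.620, 0.599 and 0.657 in controls and 0.394, 0.407 and 0.384 in knockdown libraries, where it dropped by 36.8% (exact permutation p = 0.1). BAG2, an inhibitor of the ubiquitin ligase STUB1, was near the threshold (-0.11, SE 0.04, adjusted p = 0.0197) and lost the call with total-count scaling, DESeq2 (adjusted p = 0.0658), both FPKM scales, and without control replicate 2 or 3 or knockdown replicate 2 (adjusted p = 0.111, 0.0700 and 0.1196); RAB23 overlaps it over 2842 exon bases on the opposite strand with 27.5% as many counts.

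Several of the co-chaperones act on HSP90. STIP1, the adaptor between HSP70 and HSP90, had 325, 310 and 322 CPM in controls and 253, 257 and 264 CPM in knockdown libraries (-0.30, SE 0.02, adjusted p = 5.3e-13). PTGES3, the p23 protein that closes the HSP90 cycle, had 581, 582 and 580.0 CPM in controls and 485, 493 and 482 CPM in knockdown libraries (-0.26, SE 0.02, adjusted p = 6.1e-13). For both genes the groups were far apart. The kinase adaptor CDC37 changed by -0.15 (SE 0.03) and CHORDC1, a stress-inducible HSP90 cofactor, by -0.23 (SE 0.04), and both calls were lost on the FPKM scales (adjusted p of 0.413 and 0.410 for CDC37, and 0.119 and 0.117 for CHORDC1). AHSA1, the activator of the HSP90 ATPase, was not called (0.0068, SE 0.03, adjusted p = 0.857), but was called higher with total-count scaling (0.084, adjusted p = 0.0075) and on the FPKM scales (0.11 and 0.12).

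FKBP4 and FKBP5 encode immunophilins that compete for HSP90 in steroid receptor complexes. FKBP4 had 206, 201 and 202 CPM in controls and 177, 172 and 176 CPM in knockdown libraries (-0.21, SE 0.02, adjusted p = 2.9e-09). FKBP5 had 61.6, 62.8 and 60.6 CPM in controls and 63.1, 65.6 and 62.7 CPM in knockdown libraries, with overlapping groups (0.048, SE 0.03, adjusted p = 0.260), but was called higher with total-count scaling (0.13, adjusted p = 0.0025) and on the FPKM scales (0.13 and 0.16, adjusted p = 0.0141 each). Within a library, the ratio FKBP5 over FKBP4 was 0.298, 0.312 and 0.300 in controls and 0.356, 0.381 and 0.356 in knockdown libraries, 19.99% higher (exact permutation p = 0.1).

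**Figure D4:**
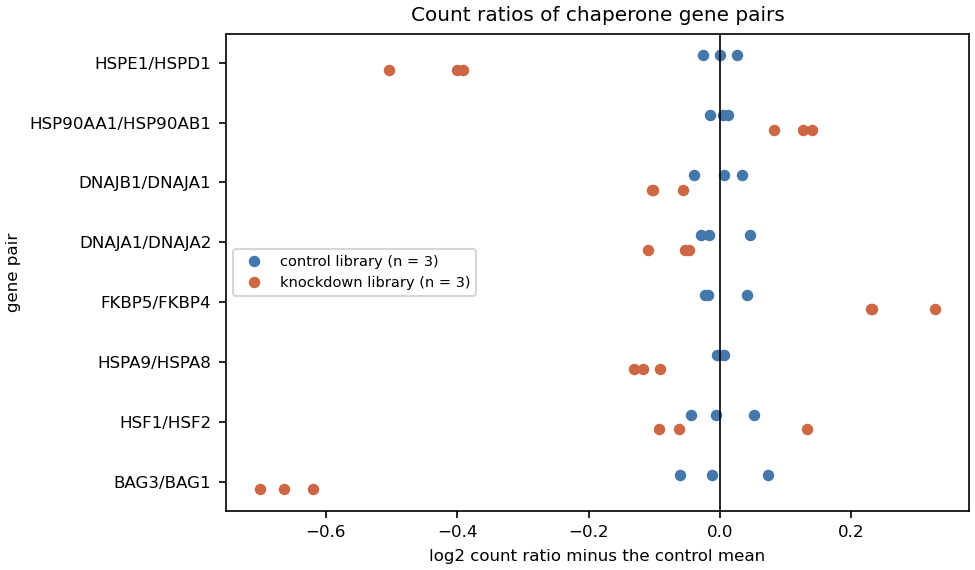
Log2 ratio of raw counts of the named gene pairs within each library, minus the mean over the 3 controls, so that no scaling factor enters. The 3 knockdown libraries lie apart from the 3 controls in 7 of the 8 pairs, furthest for BAG3/BAG1 and HSPE1/HSPD1, and are interleaved with them for HSF1/HSF2.

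The small heat shock proteins hold unfolded chains without using ATP. HSPB1 (HSP27) had 343, 335 and 351 CPM in controls and 316, 307 and 328 CPM in knockdown libraries (-0.11, SE 0.02, adjusted p = 2.3e-04), a call lost with total-count scaling (-0.035, adjusted p = 0.231) and on both FPKM scales (-0.0030 each). HSPB8, which works with BAG3, was scarce at 15.6, 16.05 and 15.7 CPM in controls and 19.4, 17.1 and 18.04 CPM in knockdown libraries. Its groups did not overlap, and it rose by 0.20 (SE 0.06, adjusted p = 0.0062), but the call ended without knockdown replicate 1 (0.16, adjusted p = 0.0535). CRYAB, a small heat shock protein outside the 41, had the smallest adjusted p of 24 other cytosolic chaperone genes, at 2.51 CPM in controls and 6.87 CPM in knockdown libraries (1.45, SE 0.12, adjusted p = 7.6e-12). In that list 22 genes were tested, 12 fell and 5 rose (median -0.11), a called share of 77.3% against 44.1% of all tested genes. With total-count scaling 7 fell and 6 rose (-0.029), and on the FPKM scales 3 fell and 6 rose with the median turned (0.0029 each). The next by adjusted p were UNC45A, a myosin chaperone (0.27, SE 0.03), and DNAJB2, a J protein that sorts clients to the proteasome (-0.39, SE 0.05).

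The heat shock factors themselves were low and changed little. HSF1, on chromosome 8, had 56.6, 60.7 and 58.2 CPM in controls and 52.8, 53.2 and 57.3 CPM in knockdown libraries, with overlapping groups. Its call (-0.10, SE 0.04, adjusted p = 0.0278) was lost with DESeq2 (adjusted p = 0.0805), with total-count scaling (adjusted p = 0.625), on both FPKM scales, where the sign turned (0.0059 and 0.0063), and without control replicate 2 or 3 or knockdown replicate 1 or 2 (adjusted p = 0.160, 0.0555, 0.153 and 0.0974). DGAT1, on the opposite strand, shares 139 exon bases with HSF1, held 40.4% as many counts and fell (-0.25, SE 0.05). HSF2 had 11.4 CPM in each control and 11.001, 10.9 and 10.2 CPM in knockdown libraries (-0.098, SE 0.07, adjusted p = 0.280), with the sign turned on both FPKM scales (0.0096 and 0.012). The ratio HSF1 over HSF2 was 4.96, 5.30 and 5.09 in controls and 4.80, 4.90 and 5.61 in knockdown libraries (exact permutation p = 0.9).

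Different genes were ordered by deposited FPKM, which rests on a gene length that no source used here gives. DNAJB6 and DNAJA2, for example, had 95.5 and 96.5 CPM but 5.20 and 15.9 FPKM in the control mean. The order is therefore one of FPKM and may differ from that of mRNA molecules. By mean control FPKM the order began with HSP90AB1 (314), HSPA8 (216), HSP90AA1 (202), HSPE1 (179), HSPB1 (173), PTGES3 (139.5), CCT4 (124) and DNAJA1 (109.5), and ended with CHORDC1 (5.78), DNAJB6 (5.20), FKBP5 (4.74), HSPB8 (3.60) and HSF2 (3.46). HSPE1 and HSPB1 are neighbours whose control libraries overlapped within their spread, at 179, 180.3 and 177 FPKM for HSPE1 and 173, 167 and 177 FPKM for HSPB1. In knockdown libraries HSPB1 was above HSPE1, at 172 against 154 FPKM in the mean.

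**Figure D5:**
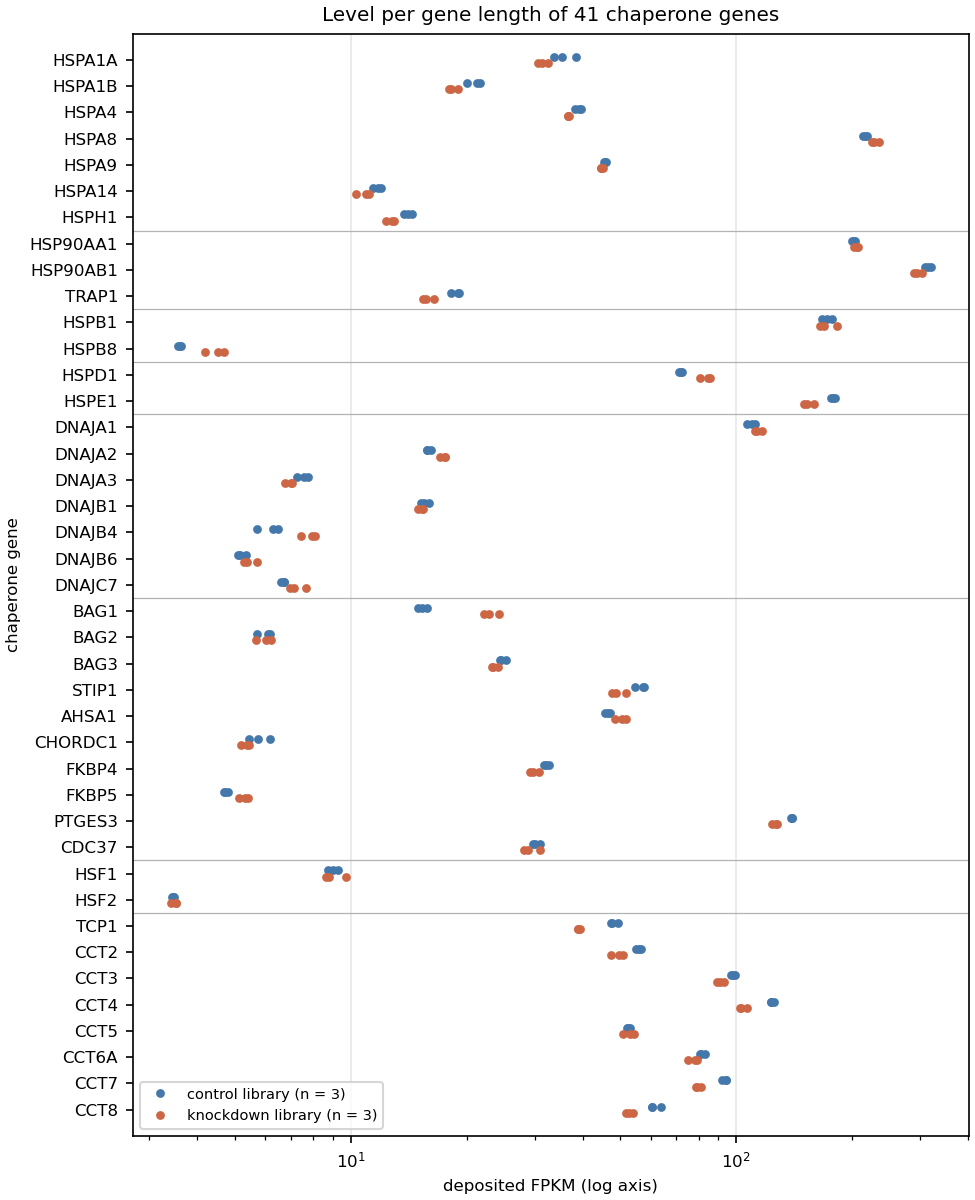
Deposited FPKM of each of the 41 genes on a log axis, with 1 point per library (blue, 3 controls; orange, 3 knockdown). Genes are grouped by class; HSP90AB1 has the highest control mean at 314 and HSF2 the lowest at 3.46, and on this scale HSPA8 lies slightly higher in knockdown libraries.

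The mitochondrial and endoplasmic reticulum branches of the same families gave points of comparison. In each of these lists of 12 genes 66.7% were called, against 44.1% of all tested genes (22.2% higher and 21.9% lower). Among the 9126 genes at least as abundant in controls as the scarcest of the 41, the share was 60.6%. Of 12 other mitochondrial chaperone and protease genes 6 fell and 2 rose (median -0.13); with total-count scaling 2 fell and 2 rose (-0.053), and on the FPKM scales 1 fell and 2 rose (-0.017 and -0.019). GRPEL1, the nucleotide exchange factor of HSPA9, fell from 50.6 to 40.996 CPM (-0.30, SE 0.04), the protease subunit CLPP fell (-0.21, SE 0.05; the call was lost on the FPKM scales, adjusted p = 0.203 and 0.199) and the inner membrane protease gene AFG3L2 rose (0.15, SE 0.03). Of 12 endoplasmic reticulum members 6 rose and 2 fell (median 0.091); with total-count scaling 7 rose and 0 fell (0.17), and on the FPKM scales likewise 7 rose and 0 fell (0.19 and 0.20). HSPA5, the HSP70 of that compartment, rose from 522 to 597 CPM (0.19, SE 0.02), HSP90B1, its HSP90, from 926 to 1009 CPM (0.12, SE 0.02), and the J-domain gene DNAJC3 from 42.8 to 52.6 CPM (0.30, SE 0.04). Beside these stand -0.024 for HSPA8 and -0.14 for HSPA9, and -0.083, -0.20 and -0.35 for HSP90AA1, HSP90AB1 and TRAP1; the differences between paralogs of different compartments were not tested.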

How the data were processed

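Libraries were poly(A) RNA-seq of 6 A549 samples, directional and paired-end per the labels' protocols. The authors deposited whole-number read counts per gene and FPKM values rounded to 2 decimals. HISAT2, DESeq2 and GRCh38 are named in the submitters' processing notes with no role; no source used here names the counting tool, its strand setting or the annotation. Counts were filtered with filterByExpr (minimum count 10), scaled by TMM and fitted by quasi-likelihood in edgeR 4.0.16 under R 4.3.3 (robust, Benjamini-Hochberg over all 17089 genes tested); the script was tested on simulated data. CPM errors are SDs over 3 libraries, and the standard error of a fitted change is its size divided by the root of F. Replicates differed by more than sampling noise (chi-square per degree of freedom 1.78 to 2.88). Full statistics went to the 10 smallest adjusted p among the 41 genes, every gene that rose and both genes of each of 8 pairs; of other lists, the 3 smallest adjusted p were named, and overlapping neighbours were named from the annotation. The genes and lists were chosen with earlier results of these data known. Alternatives were other scalings and filters, DESeq2 1.42.0, limma 3.58.1 on counts and on log2(FPKM + 1) and log2(FPKM + 0.1), the replicate number as a block, and each library left out.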

Additional observations from a re-analysis of the deposited data

How the results depend on the processing

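Direction and call were the same for 21 of the 41 genes under every alternative run for them, 18 for 40 genes and 17 for HSPA1B, which has no value of its own where its counts are summed with HSPA1A. Total-count scaling, log2(FPKM + 1) and log2(FPKM + 0.1) accounted for the larger shifts: 2398, 1552 and 1554 of all tested genes were lower, 9, 8 and 8 chaperone genes were higher, 18 and 18 were lower on the FPKM scales, and the chaperone median was -0.10, -0.069 and -0.071. In that order the DNAJ median was 0.036, 0.057 and 0.067, and single genes changed sign: HSPA8 (0.053, 0.085, 0.085), DNAJA1 (0.025, 0.057, 0.058) and DNAJB6 (0.036, 0.057, 0.067). On the FPKM scales alone the sign turned for HSP90AA1 (0.026, 0.027), HSF1 (0.0059, 0.0063), HSF2 (0.0096, 0.012), CCT5 (0.0041, 0.0042) and the heat shock factor median (0.0077, 0.0091). Leaving out 1 library in turn gave chaperone medians from -0.19 to -0.17, a small heat shock protein median from 0.026 (without knockdown replicate 1) to 0.076 (without knockdown replicate 2), FKBP5 as low as 0.028 (without knockdown replicate 2), HSF2 at -0.065 without knockdown replicate 3, DNAJC7 from -0.018 to 0.030, AHSA1 from -0.0094 to 0.027, and a log2 HSF1/HSF2 ratio difference from -0.078 to 0.035. Summing HSPA1A and HSPA1B, added after the data were seen, gave a median of -0.17. Deviations of same-numbered control and knockdown libraries correlated at 0.068, 0.037 and 0.15, and those of unlike-numbered libraries at -0.11 to 0.046. Whether the replicate numbers pair the libraries was not tested. With the replicate number as a block 29 chaperone genes were lower and 4 higher, the call of DNAJA1 being lost (adjusted p = 0.0637).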
